A study of Danio rerio with 12 samples.

Results

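The 10 genes described here are antiviral effectors and sensors of zebrafish that interferon is known to induce. They were the Mx GTPase genes mxa, mxb, mxc and mxe, the ubiquitin-like modifier gene isg15, the viperin gene rsad2, the RNA sensor genes dhx58 and ifih1, and the eIF2alpha kinase genes pkz and eif2ak2. They make up 10 of the 32520 genes listed in each library, were chosen by name, and each symbol matched a single Ensembl identifier. The choice was made with their counts in these libraries already known, the spread within wild-type hearts at 7 days after amputation in particular, so every comparison that uses that group describes these genes and is no test of them.

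RNA-seq counts were made from ventricles of adult zebrafish, taken below the plane of surgery, in 4 groups of 3 libraries each. The groups were mvp mutants 7 days after resection of the ventricle (mvp 7dpa), mvp mutants after sham surgery (mvp sham), wild-type fish 7 days after resection (WT 7dpa) and wild-type fish after sham surgery (WT sham). The mutants carry a CRISPR-Cas9 deletion of mvp, which encodes the major vault protein, and stem from a single allele that is described as removing the whole coding region. The study's methods give AB as the background of its zebrafish lines. The sources used here do not say how hearts were divided among the libraries, so each p-value measures only the spread between these libraries, which may be technical.

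When a cell detects viral RNA or DNA, it releases interferons, which bind receptors on neighbouring cells and act through JAK kinases and STAT and IRF transcription factors. The genes switched on in this way include effectors that block the replication of viruses and sensors that make the cell more alert to foreign nucleic acids. Zebrafish have their own type I interferons, named ifnphi, several Mx genes, and pkz, a kinase with Z-nucleic-acid-binding domains that is found in fish beside the common eif2ak2. In the heart these genes are known mainly from viral infection, and cells of the immune system that enter injured tissue also express them.

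Library totals ranged from 21356163 to 26684651 counts, so that 3 counts, taken as the floor, stood for 0.0955 to 0.161 CPM (counts scaled to the library total after TMM normalization, as for every CPM given here), with floors covering counting error only. The targeted gene mvp (ENSDARG00000021242) had 429, 434 and 475 counts in mvp 7dpa libraries, 91, 107 and 108 in mvp sham libraries, 5405, 3444 and 4268 in WT 7dpa libraries and 3346, 4384 and 3528 in WT sham libraries. Every mutant library thus lay below every wild-type library, although counts for mvp remained in the mutants. They were higher in mvp 7dpa than in mvp sham (log2 fold change 1.84, edgeR adjusted p = 1.29e-06). The study describes the mRNA of mvp as not detectable in its knockout fish. It shows this in embryos, by qPCR and in situ hybridization, and not in adult ventricles. The source of the mvp counts in the mutant libraries was not tested. Within WT 7dpa, replicate 1 stood apart from replicates 2 and 3: both were above it by more than 1 on the log2 CPM scale for 7.75% of the 16604 genes that passed the low-count filter, and below it by more than 1 for 2.42%. Markers of the labelled tissue were present, with 16 cardiomyocyte markers summing to 45918 CPM or more in every library. Of these, 0 were at 0 throughout, although 1 read in any library would be enough for that.

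The first question was how the 10 genes vary among the libraries of a group. In WT 7dpa, replicates 2 and 3 were above replicate 1 for 10 of 10 members, by more than 1 on the log2 CPM scale in each case, whereas both were above replicate 1 for 43.5% of all genes tested. The median range of the 10 members among the 3 libraries of a group, in log2 CPM, was 0.49 in mvp 7dpa, 0.75 in mvp sham, 2.70 in WT 7dpa (lowest 1.34, highest 5.26) and 0.62 in WT sham. For all tested genes it was 0.24 in mvp 7dpa, 0.25 in mvp sham, 0.45 in WT 7dpa and 0.30 in WT sham. Without replicate 1 the median range in WT 7dpa was 0.10. These values entered the choice of the genes and are not evidence for the pattern.

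**Figure D1:**
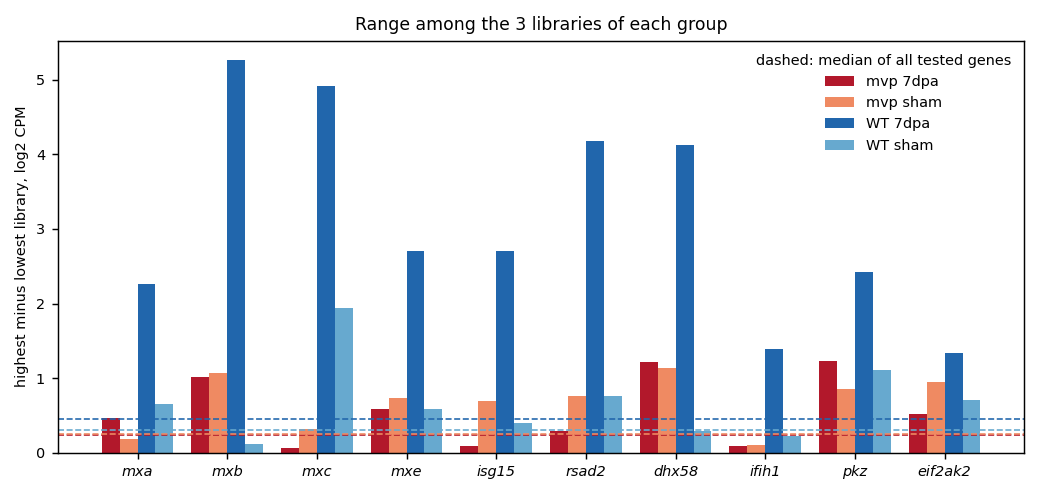
Range among the 3 libraries of each group for each of the 10 genes, as the highest minus the lowest log2 CPM. Bars are the 4 groups and dashed lines the median of all tested genes in the same group; the WT 7dpa bars reach from 1.34 for eif2ak2 to 5.26 for mxb, above the other 3 groups for each gene.

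Mx proteins are dynamin-like GTPases that trap or disable viral nucleoproteins. mxa (ENSDARG00000021688) had 53, 47 and 36 counts in mvp 7dpa, 17, 15 and 19 in mvp sham, 81, 341 and 435 in WT 7dpa, and 37, 49 and 26 in WT sham. Replicates 2 and 3 of WT 7dpa were far above the other libraries and mvp sham was below all of them. The mean level was 1.82 ± 0.308 CPM in mvp 7dpa, 0.836 ± 0.068 in mvp sham, 10.1 ± 6.30 in WT 7dpa and 1.83 ± 0.430 in WT sham (SD, n = 3 in each group, as for all means of the members), and mvp 7dpa and WT sham overlapped.

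mxb (ENSDARG00000004953), the direct neighbour of mxa in the RefSeq annotation of GRCz12tu, had 13, 12 and 5 counts in mvp 7dpa, 8, 3 and 7 in mvp sham, 32, 1150 and 1414 in WT 7dpa, and 3, 4 and 3 in WT sham. It had the widest gap of the 10 genes: WT 7dpa replicates 2 and 3, at 46.0 and 45.0 CPM, were 91.2 and 89.3 times the highest of the 9 libraries outside WT 7dpa, and WT 7dpa replicate 1, at 1.12 CPM, was also above all 9. The mean was 0.401 ± 0.170 CPM in mvp 7dpa, 0.295 ± 0.132 in mvp sham, 30.7 ± 25.6 in WT 7dpa and 0.164 ± 0.0109 in WT sham. The mvp sham libraries overlapped both mvp 7dpa and WT sham at levels close to the floor.

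mxc (ENSDARG00000024789) had 103, 94 and 99 counts in mvp 7dpa, 15, 15 and 13 in mvp sham, 45, 1161 and 1566 in WT 7dpa, and 6, 10 and 1 in WT sham. It was the member with the clearest steps outside WT 7dpa, since all mvp 7dpa libraries were above all mvp sham libraries and these above all WT sham libraries. Its mean was 3.97 ± 0.0862 CPM in mvp 7dpa, 0.709 ± 0.0938 in mvp sham, 32.6 ± 26.9 in WT 7dpa and 0.271 ± 0.199 in WT sham. WT 7dpa replicate 1, at 1.57 CPM, was above the sham libraries of both genotypes but below every mvp 7dpa library.

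The neighbour of mxc in the same annotation, mxe (ENSDARG00000014427), had 43, 62 and 49 counts in mvp 7dpa, 43, 33 and 61 in mvp sham, 85, 461 and 622 in WT 7dpa, and 23, 26 and 34 in WT sham. Its mutant groups overlapped, at 2.08 ± 0.450 CPM in mvp 7dpa and 2.23 ± 0.578 in mvp sham, and the mean was 13.7 ± 9.35 in WT 7dpa and 1.38 ± 0.328 in WT sham. All 3 WT 7dpa libraries were above the other 9, with replicate 1 at 2.97 CPM closest to them.

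Neighbouring Mx genes did not keep a fixed ratio of counts to each other. The count of mxb over that of mxa was 0.139 to 0.255 in mvp 7dpa, 0.200 to 0.471 in mvp sham and 0.0811 to 0.115 in WT sham, and in WT 7dpa it was 0.395 in replicate 1, 3.37 in replicate 2 and 3.25 in replicate 3. For mxc over mxe it was 1.52 to 2.40 in mvp 7dpa, 0.213 to 0.455 in mvp sham and 0.0294 to 0.385 in WT sham, and in WT 7dpa it was 0.529 in replicate 1 and 2.52 in replicates 2 and 3. The ratio in mvp 7dpa thus lay above both sham groups for mxc over mxe but within the mvp sham range, or below it, for mxb over mxa. Ratios within 1 library do not depend on its scaling. The Mx genes are close copies of each other and how reads that fit several genes were counted is not given in the sources used here, so that reads may have been lost from them or given to the wrong copy.

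isg15 (ENSDARG00000086374) encodes a ubiquitin-like protein that is attached to host and viral proteins. It had 110, 97 and 104 counts in mvp 7dpa, 41, 68 and 60 in mvp sham, 276, 1527 and 1982 in WT 7dpa, and 73, 67 and 63 in WT sham. WT 7dpa replicates 2 and 3 were 14.3 and 14.8 times the highest of the 9 libraries outside the group, and replicate 1, at 9.64 CPM, was also above them. The mean was 4.17 ± 0.148 CPM in mvp 7dpa, 2.77 ± 0.666 in mvp sham, 44.6 ± 30.3 in WT 7dpa and 3.37 ± 0.501 in WT sham, and the sham groups of the 2 genotypes overlapped.

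rsad2 (ENSDARG00000004952) encodes viperin, a radical SAM enzyme whose product stops viral RNA polymerases. It had 7, 5 and 6 counts in mvp 7dpa, 2, 2 and 5 in mvp sham, 5, 104 and 145 in WT 7dpa, and 8, 5 and 5 in WT sham. Only WT 7dpa replicates 2 and 3 had more than 8 counts, and rsad2 did not pass the low-count filter, which asks for a minimum in 3 libraries, so it was the member without a fold change or test. Its mean was 0.241 ± 0.0327 CPM in mvp 7dpa, 0.145 ± 0.0748 in mvp sham, 2.98 ± 2.44 in WT 7dpa and 0.302 ± 0.112 in WT sham, and no group was wholly above or below another.

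The helicase family of RNA sensors was represented by dhx58 and ifih1. dhx58 (ENSDARG00000089463) encodes LGP2, which modulates the other sensors of the family, and had 9, 12 and 4 counts in mvp 7dpa, 4, 10 and 4 in mvp sham, 6, 126 and 142 in WT 7dpa, and 13, 18 and 17 in WT sham. In WT 7dpa, replicate 1 was below every WT sham library whereas replicates 2 and 3 were above all others. Its mean was 0.336 ± 0.166 CPM in mvp 7dpa, 0.298 ± 0.179 in mvp sham, 3.26 ± 2.65 in WT 7dpa and 0.788 ± 0.0886 in WT sham, and both mutant groups lay wholly below WT sham.

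ifih1 (ENSDARG00000018553) encodes MDA5, the sensor of long double-stranded RNA. It had 423, 389 and 377 counts in mvp 7dpa, 344, 378 and 400 in mvp sham, 560, 1282 and 1573 in WT 7dpa, and 312, 398 and 382 in WT sham. Levels outside WT 7dpa were close together, at 16.0 ± 0.498 CPM in mvp 7dpa, 18.4 ± 0.730 in mvp sham and 18 ± 1.52 in WT sham, against 40.3 ± 18 in WT 7dpa. WT 7dpa replicate 1, at 19.6 CPM, fell within the WT sham range of 16.8 to 19.7, and replicates 2 and 3 were at 51.3 and 50.1.

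The kinases encoded by pkz and eif2ak2 phosphorylate eIF2alpha and thereby stop the synthesis of proteins in infected cells; they too are neighbours in the GRCz12tu annotation. pkz (ENSDARG00000052396) had 18, 6 and 8 counts in mvp 7dpa, 1, 3 and 1 in mvp sham, 6, 26 and 47 in WT 7dpa, and 12, 6 and 13 in WT sham. The mvp sham libraries were below all the others and at or under the floor of 3 counts. Means were 0.424 ± 0.240 CPM in mvp 7dpa, 0.083 ± 0.0594 in mvp sham, 0.915 ± 0.652 in WT 7dpa and 0.526 ± 0.227 in WT sham, and the last 2 overlapped with mvp 7dpa.

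eif2ak2 (ENSDARG00000068729), the double-stranded RNA-activated kinase PKR, had 6, 8 and 5 counts in mvp 7dpa, 13, 6 and 11 in mvp sham, 8, 21 and 21 in WT 7dpa, and 12, 9 and 7 in WT sham. It had the smallest range of the 10 genes within WT 7dpa, and replicate 3 of that group was level with the highest of the 9 libraries outside it. The mean was 0.256 ± 0.0660 CPM in mvp 7dpa, 0.493 ± 0.182 in mvp sham, 0.596 ± 0.287 in WT 7dpa and 0.467 ± 0.155 in WT sham. mvp sham overlapped each of the other groups.

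**Figure D2:**
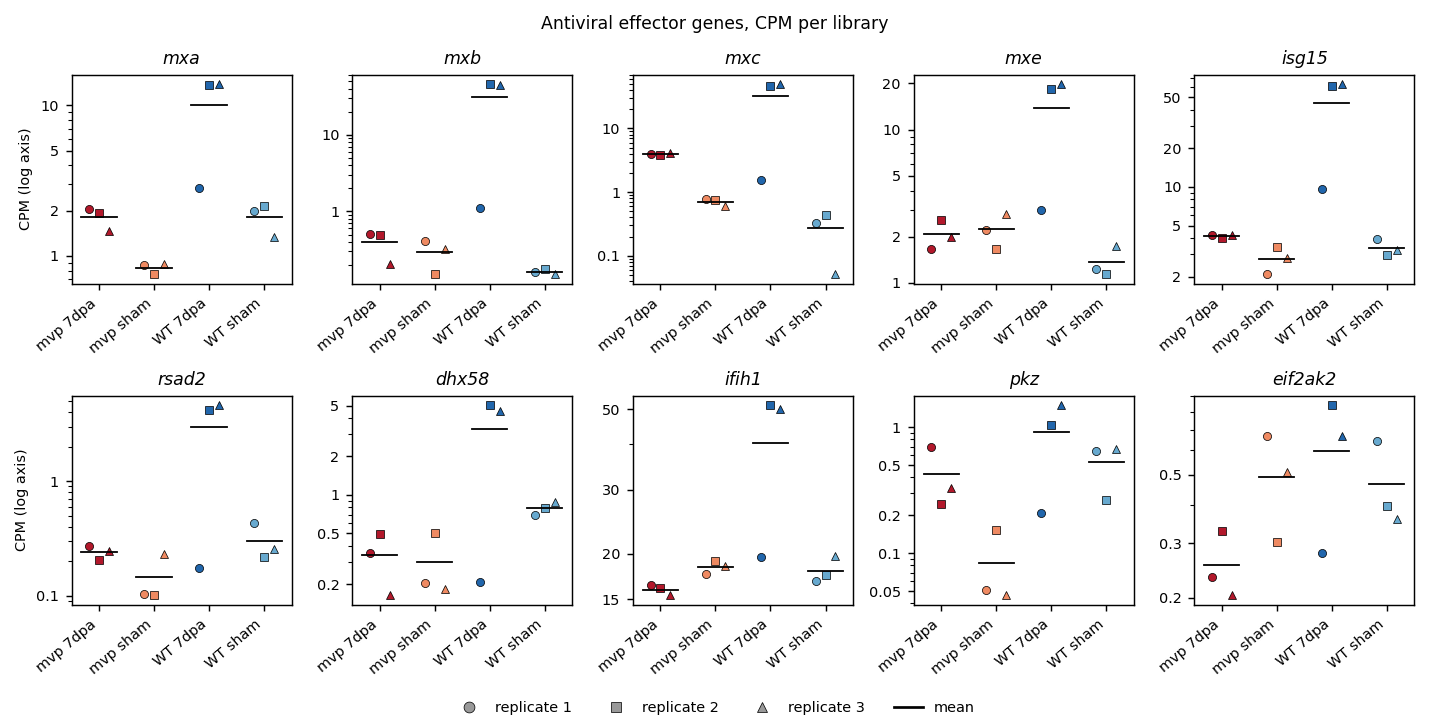
CPM of the 10 genes in every library, on a log axis with a scale of its own for each gene. Symbols mark the replicate, colours the group and bars the group mean; WT 7dpa replicates 2 and 3 (square and triangle) sit above replicate 1 (circle) in all 10 panels.

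The step between WT 7dpa replicates 1 and 2 differed in size among the members. The CPM of replicate 2 over that of replicate 1 was 41.1 for mxb, 29.5 for mxc, 24.0 for dhx58 and 23.8 for rsad2. It was 6.33 for isg15, 6.21 for mxe, 4.96 for pkz, 4.82 for mxa, 3.01 for eif2ak2 and 2.62 for ifih1. Replicates 2 and 3 were close to each other, with ratios of replicate 3 over replicate 2 from 0.796 for eif2ak2 to 1.44 for pkz.

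Replicate 1 of WT 7dpa alone did not lie on the same side of the other groups for every member. It was above all WT sham libraries for mxa, mxb, mxc, mxe and isg15, within their range for ifih1, and below them for rsad2, dhx58, pkz and eif2ak2. The largest ratio of replicate 1 to the WT sham mean was 6.82, for mxb, and the smallest 0.266, for dhx58. Against mvp 7dpa, replicate 1 was above for mxa, mxb, mxe, isg15 and ifih1, within for dhx58 and eif2ak2, and below for mxc, rsad2 and pkz.

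Markers of several other cell types differed between replicate 1 and replicates 2 and 3 of WT 7dpa. The summed CPM of 24 macrophage markers was 1324 in replicate 1, 2416 in replicate 2 and 2460 in replicate 3, and replicates 2 and 3 were above replicate 1 for 18 of the 19 that were tested. That of 14 T, NK and B lymphocyte markers was 18.5, 173 and 180 in the same order, most of it from ighm, the immunoglobulin M heavy chain gene, at 11.1, 147 and 154 CPM. Neutrophil markers summed to 24.6, 73.4 and 75.0, most of it from LECT2 ENSDARG00000090889 (17.4, 32.4 and 34.9 CPM) and NCF1 (2.93, 22.6 and 21.8 CPM). Epicardial and fibroblast markers, at 3748, 2444 and 2382, erythroid markers, at 642, 219 and 223, and cardiomyocyte markers, at 60274, 45959 and 45918, were instead highest in replicate 1. Replicates 2 and 3 were nevertheless above replicate 1 for 2 of 12 tested epicardial and fibroblast markers, TCF21 and ALDH1A2. The same held for 0 of 5 erythroid markers and for 3 of 15 cardiomyocyte markers, nppa, nppb and RYR2. Endothelial and endocardial markers stayed level, at 418, 423 and 426, with replicates 2 and 3 above replicate 1 for 4 of the 9 tested and by more than 1 log2 unit for 0. In each of these lists 0 markers were at 0 in all libraries, although 1 of 3 copies named MPEG1 and the erythroid entry SLC4A1 ENSDARG00000024560 were each at 0 in 11 of 12. Their part in the members' values was not tested, and in bulk tissue fewer cells of a type and less RNA per cell cannot be told apart.

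**Figure D3:**
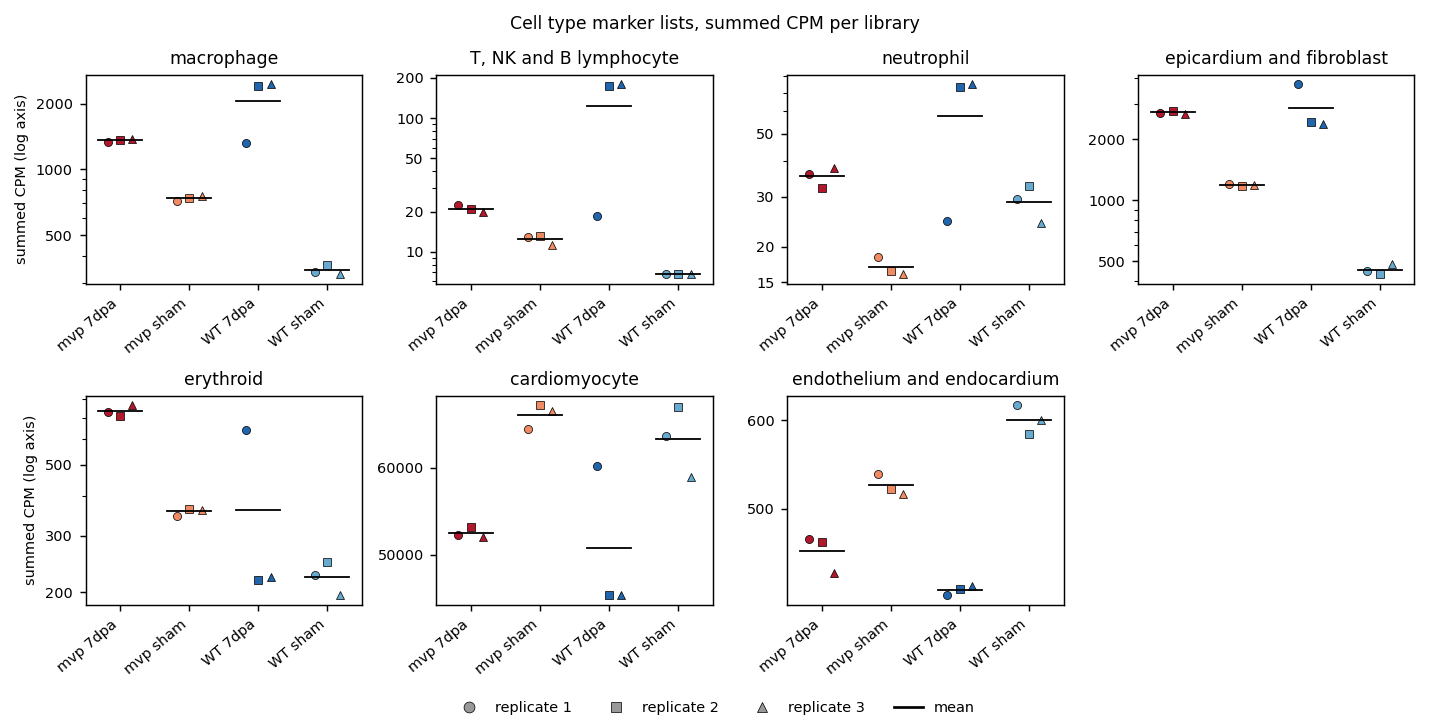
Summed CPM of 7 cell type marker lists in every library, on log axes. Symbols mark the replicate, colours the group and bars the mean; WT 7dpa replicate 1 lies below replicates 2 and 3 for macrophage, lymphocyte and neutrophil markers and above them for epicardial, erythroid and cardiomyocyte markers, and the 3 are close together for endothelial and endocardial markers.

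The comparison of mvp 7dpa with mvp sham hearts asks how the 10 genes responded to injury in the mutants, and it holds no WT 7dpa library among its groups. edgeR called 0 of the 9 tested members, against 26.3% of all tested genes (12.9% higher and 13.4% lower). Of the 9, 2 had an unadjusted p under 0.05, mxc and pkz, and DESeq2 called these 2 (adjusted p = 0.0463 for mxc and 0.0488 for pkz). The median log2 fold change was 0.44 for the 9 members, which is the value of mxb, and 0.02 for all tested genes. Outside WT 7dpa too few libraries had enough counts of mxb for the filter, so it was among the 9 only through WT 7dpa. This median is therefore no test of the members.

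Read by the libraries alone, mxa, mxc, isg15 and pkz were higher in every mvp 7dpa library than in any mvp sham library, which is 4 of 10 members against 26.3% of tested genes in that direction. In the other direction ifih1 did not overlap, 1 of 10 against 25.0%. For mxc the log2 fold change was 2.48 (SE 1.04, edgeR adjusted p = 0.0984), for pkz 2.31 (SE 0.92, adjusted p = 0.0844) and for mxa 1.12 (SE 0.56, adjusted p = 0.159). It was 0.59 for isg15 (SE 0.58, edgeR adjusted p = 0.495) and -0.21 for ifih1 (SE 0.26, adjusted p = 0.603). The counts of pkz sum to 32 in mvp 7dpa and 5 in mvp sham, a ratio of 6.33 with a 95% exact counting interval of 2.45 to 20.8.

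The standard errors above come from a model that shares 1 estimate of the spread per gene among all 4 groups, WT 7dpa included. When edgeR was fitted to the mutant libraries alone, the fold changes hardly moved but the standard error of mxc was 0.21 instead of 1.04, and 4 of the 5 members that then passed the filter were called. They were mxc (log2 fold change 2.49, adjusted p = 3.54e-10), mxa (1.13, 0.000586), isg15 (0.60, 0.00446) and, in the lower direction, ifih1 (-0.20, 0.0348). In the fit of all groups without WT 7dpa replicate 1, which let 10 members pass the filter, these 4 and pkz were called. The low values of that library were among those that chose the genes, and rsad2 passed this filter only through WT 7dpa replicates 2 and 3. The calls of this fit are therefore no test of the members. With all 12 libraries and no filter on low counts, edgeR called mxc (adjusted p = 0.0376). The fold changes of these genes hardly moved among the fits, whereas their calls depended on which libraries, filter and test were used. The shares of all tested genes called in these other fits are not given here, so the counts are not read as particular to the members.

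Marker lists of other cells also differed between mvp 7dpa and mvp sham. Macrophage markers summed to 1335 to 1376 CPM in mvp 7dpa and 716 to 756 in mvp sham, with 13 of 19 tested called higher. For epicardial and fibroblast markers the sums were 2672 to 2772 CPM in mvp 7dpa and 1183 to 1211 in mvp sham, with 11 of 12 called higher. Erythroid markers summed to 711 to 766 CPM in mvp 7dpa and 347 to 365 in mvp sham (3 of 5 higher and 1 lower), and neutrophil markers to 32.3 to 37.9 and 16.0 to 18.4 (2 of 5 higher). Lymphocyte markers were at 20.0 to 22.4 CPM in mvp 7dpa and 11.3 to 13.2 in mvp sham, with 2 of 10 called higher. Cardiomyocyte markers summed to 51850 to 53027 CPM in mvp 7dpa and 65057 to 68445 in mvp sham, with 1 of 15 higher and 8 lower, and endothelial and endocardial markers to 438 to 469 and 515 to 537, with 1 of 9 higher and 3 lower. Their part in the members' values was not tested.

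The other 4 tested members overlapped between the groups. eif2ak2 had a log2 fold change of -0.93 (SE 0.49, edgeR adjusted p = 0.184), mxb of 0.44 (SE 1.75, adjusted p = 0.884), dhx58 of 0.18 (SE 1.07, adjusted p = 0.926) and mxe of -0.11 (SE 0.57, adjusted p = 0.911). For rsad2 the mean of 0.241 CPM in mvp 7dpa and that of 0.145 CPM in mvp sham come from libraries that overlap, with 2 to 7 counts each.

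Between sham hearts of the 2 genotypes, 1 of 9 tested members was called, pkz, in the lower direction, against 49.5% of all tested genes (25.3% higher and 24.2% lower). It had 0.083 ± 0.0594 CPM in mvp sham and 0.526 ± 0.227 in WT sham, a log2 fold change of -2.58 (SE 0.92, edgeR adjusted p = 0.0328). The summed counts were 5 in mvp sham and 31 in WT sham, a ratio of 0.167 with a 95% exact counting interval of 0.0508 to 0.434. The direction was kept when each library was left out in turn, but the call was lost without WT sham replicate 1 (adjusted p = 0.0808), WT sham replicate 3 (0.0867), mvp sham replicate 1 (0.0925) or mvp sham replicate 3 (0.102). The median log2 fold change of the 9 members was 0.04, and that of all tested genes was -0.00.

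Among the libraries themselves, mxa, dhx58 and pkz were lower in every mvp sham library than in any WT sham library, 3 of 10 members against 30.9% of tested genes. mxc was higher in every mvp sham library, 1 of 10 against 31.8%. The log2 fold change was -1.13 for mxa (SE 0.57, edgeR adjusted p = 0.117), -1.40 for dhx58 (SE 0.97, adjusted p = 0.254) and 1.33 for mxc (SE 1.65, adjusted p = 0.533). In the fit of only the sham libraries 4 of 7 tested members were called, mxa (adjusted p = 0.00133) and dhx58 (0.00652) lower and mxc (0.02) and mxe (0.0211) higher, and in the fit without WT 7dpa replicate 1 edgeR called these 4 and pkz. isg15 (-0.27), ifih1 (0.04) and eif2ak2 (0.09) were called in none of these 3 fits. mxb (0.83) was not called in the fit of all 12 libraries or in that without WT 7dpa replicate 1. In the fit of only the sham libraries mxb, pkz and rsad2 had too few counts to be tested. The shares of all tested genes called in the fits other than that of all 12 libraries are not given here, so these counts are not read as particular to the members. The low values of WT 7dpa replicate 1 were among those that chose the genes, so the fit without it is no test of them. Macrophage markers summed to 716 to 756 CPM in mvp sham and 331 to 365 in WT sham, with 12 of 19 tested called higher and 1 lower, and epicardial and fibroblast markers to 1183 to 1211 and 433 to 483, with 7 of 12 higher and 3 lower. Neutrophil markers went the other way, at 16.0 to 18.4 CPM in mvp sham and 24.3 to 32.8 in WT sham. Of 5 tested, 0 were called higher and 2 lower. Of 10 lymphocyte markers 2 were called higher and 2 lower, and of 5 erythroid markers 3 higher and 0 lower. For 15 cardiomyocyte markers these were 6 and 2, and for 9 endothelial and endocardial markers 3 and 3. The part of these markers in the members' values was not tested.

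In wild-type hearts the comparison of WT 7dpa with WT sham is a description, since these values entered the choice of the genes. The log2 fold changes were 7.50 for mxb, 6.84 for mxc, 3.73 for isg15, 3.32 for mxe, 2.46 for mxa, 2.03 for dhx58 and 1.16 for ifih1, 0.83 for pkz and 0.35 for eif2ak2. Those of mxb and mxc are set against WT sham libraries of 3 or 4 counts and of 1 to 10 counts. All 3 WT 7dpa libraries were above all WT sham libraries for mxa, mxb, mxc, mxe and isg15, 5 of 10 members where 30.8% of tested genes were, and 0 members were below without overlap, where 29.4% were. For dhx58, ifih1, rsad2, pkz and eif2ak2 replicate 1 overlapped WT sham or lay below it, so that the higher mean of these 5 rested on replicates 2 and 3. Of the 9 tested members, 7 were past edgeR's threshold, where 59.4% of all tested genes were (31.6% higher and 27.8% lower), a count from which nothing is read here, since the same values chose the genes. Macrophage markers summed to 1324 to 2460 CPM in WT 7dpa and 331 to 365 in WT sham, with 19 of 19 tested called higher. Of 12 epicardial and fibroblast markers 11 were called higher, of 10 lymphocyte markers 7 and of 5 neutrophil markers 3, with 0 lower. The neutrophil markers npsn, lyz and cebp1, however, were lower in every WT 7dpa library than in any WT sham library. npsn was at 0.279, 2 and 1.91 CPM in WT 7dpa and at 3.12, 3.03 and 2.57 in WT sham, and lyz and cebp1 were under 1 CPM in all libraries. Of 5 erythroid markers 2 were higher and 1 lower. For 15 cardiomyocyte markers these were 5 and 9, and for 9 endothelial and endocardial markers 0 and 6. Their part in the members' values was not tested.

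The comparison of mvp 7dpa with WT 7dpa, between injured hearts, is likewise a description. The log2 fold changes were -6.23 for mxb, -3.42 for isg15, -3.25 for dhx58, -3.03 for mxc, -2.72 for mxe, -2.47 for mxa and -1.34 for ifih1, and -1.20 for eif2ak2 and -1.1 for pkz. Groups did not overlap for mxa, mxb, mxe, isg15 and ifih1, 5 of 10 members where 16.4% of tested genes were lower without overlap, and 0 members were higher without overlap, where 17.5% were. mxc, rsad2 and pkz were lower in WT 7dpa replicate 1 than in any mvp 7dpa library and higher in replicates 2 and 3, so that the direction within these 3 genes depended on the wild-type library. As above, nothing is read from the 7 of 9 members that were past edgeR's threshold, where 19.5% of all tested genes were (10.6% lower and 8.94% higher). Macrophage markers summed to 1335 to 1376 CPM in mvp 7dpa and 1324 to 2460 in WT 7dpa, with 13 of 19 tested called lower and 0 higher. Lymphocyte markers summed to 20.0 to 22.4 CPM in mvp 7dpa and 18.5 to 180 in WT 7dpa, with 3 of 10 called lower, and in both lists the low end of WT 7dpa was replicate 1. Of 5 erythroid markers, 4 were called higher, and of 12 epicardial and fibroblast and of 9 endothelial and endocardial markers 2 each. Of 15 cardiomyocyte markers 1 was called higher and 1 lower, and of 5 neutrophil markers 0. The part of these markers in the members' values was not tested.

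**Figure D4:**
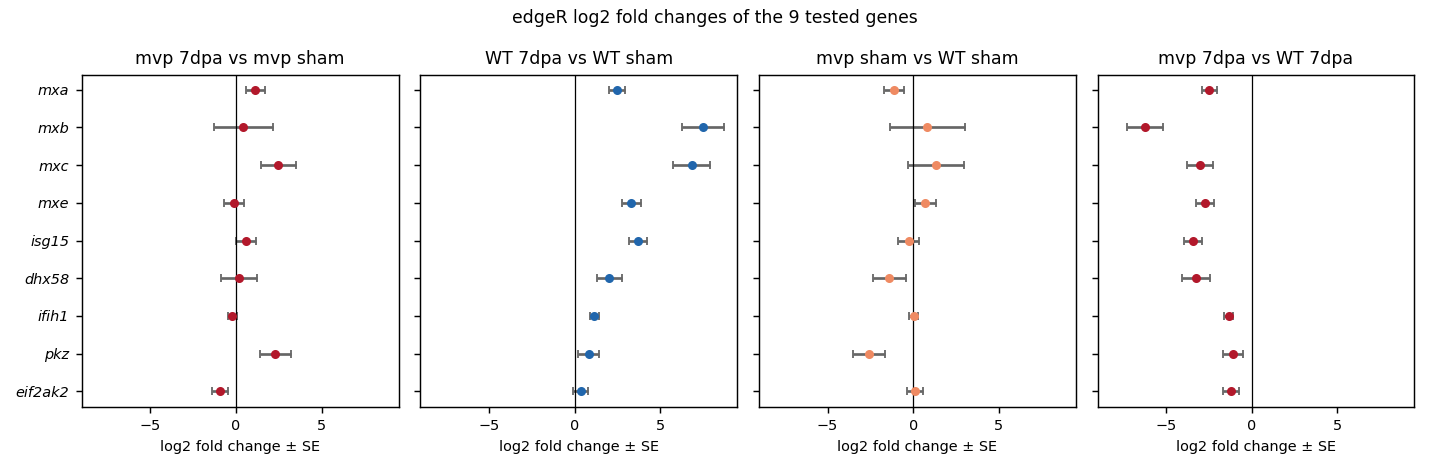
edgeR log2 fold changes with standard errors for the 9 genes tested, in 4 comparisons that share groups; rsad2 did not pass the filter and is absent. Wild-type hearts at 7dpa against sham range from 0.35 to 7.50 and mutant 7dpa hearts against WT 7dpa from -6.23 to -1.1, whereas the mutant response ranges from -0.93 to 2.48 and the sham comparison from -2.58 to 1.33.

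The difference of the 2 injury responses, mutant minus wild-type, uses all 4 groups and thus the WT 7dpa values too. On the log2 scale it was -7.06 for mxb (SE 2.69), -4.36 for mxc (SE 1.79), -3.43 for mxe, -3.14 for isg15 and -1.37 for ifih1, and pkz was the only tested member with a positive difference, at 1.48 (SE 1.13). Again nothing is read from the 3 of 9 members past edgeR's threshold, where 35% of all tested genes were (19.9% lower and 15.2% higher).

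Rather than the members alone, a list of 114 names of the interferon pathway was then read, which likewise was drawn up with earlier results of these data known; 98 genes matched it, no member among them, and 82 passed the filter. In WT 7dpa, replicates 2 and 3 were above replicate 1 for 71 of these 82 (43.5% of all tested genes), by more than 1 on the log2 CPM scale for 42 (7.75%), and more than 1 below it for 1 (2.42%). In WT 7dpa against WT sham edgeR called 55 of the 82 higher and 4 lower, beside 31.6% and 27.8% of all tested genes. In mvp 7dpa against mvp sham 18 were higher and 1 lower, beside 12.9% and 13.4%. In mvp sham against WT sham 15 were higher and 10 lower, beside 25.3% and 24.2%. The calls of this comparison and of mvp 7dpa against mvp sham rest on a spread per gene shared with WT 7dpa, where many genes of the list were split. Nothing particular to the list is therefore read from these counts. In mvp 7dpa against WT 7dpa 2 were higher and 42 lower, beside 8.94% and 10.6%, and the difference of responses was positive for 3 and negative for 26, beside 15.2% and 19.9%. Without WT 7dpa replicate 1, 86 genes of the list were tested, and the calls in either direction came to 71, 40, 50, 70 and 68 genes in the same order. The share of all tested genes called in that fit is not given here, so nothing particular to the list is read from these counts.

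The ligands had few counts in every library. Of the 6 interferon genes, only ifnphi1 passed the filter, with 17, 13 and 17 counts in mvp 7dpa, 10, 10 and 9 in mvp sham, 9, 12 and 15 in WT 7dpa, and 12, 12 and 9 in WT sham, and it was called in none of the 5 comparisons by edgeR. ifng1, the gene of interferon gamma, had 0, 2 and 2 counts in mvp 7dpa, 0 in each mvp sham library, 0, 10 and 9 in WT 7dpa and 0 in each WT sham library. The members' counts in WT 7dpa replicates 2 and 3 thus stood beside ligand counts of 15 or fewer.

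Of the receptor genes, crfb1, crfb2 and il10rb were tested, and 0 were called in WT 7dpa against WT sham. The receptor names crfb5, crfb6, crfb13 and crfb17 of the list matched no gene, so those chains were not read. crfb1, a receptor chain of the type I interferons, was called lower in mvp sham against WT sham (log2 fold change -0.47, edgeR) and in mvp 7dpa against WT 7dpa (-0.53). The second of these calls was lost in a fit of only the injured hearts (adjusted p = 0.0658).

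Transcription factors of the pathway showed the same 2 high libraries as the members. IRF7, which drives the transcription of interferon genes, had a mean of 6.20 CPM in mvp 7dpa and 5.96 in mvp sham, was at 7.26, 106 and 106 CPM in the 3 WT 7dpa libraries, and had a mean of 5.80 in WT sham. The log2 fold change of WT 7dpa against WT sham was 3.65 for IRF7 (edgeR adjusted p = 0.000454). stat2 and irf9, whose products act in a common complex, were at 15.5, 39.6 and 40.5 CPM and at 40.1, 69.5 and 62.5 CPM in the WT 7dpa libraries. In WT sham they were at 21.6, 20.6 and 25.3 CPM and at 33.2, 34.4 and 36 CPM. In WT 7dpa against WT sham irf9 was called higher (0.73) and stat2 was not called, with replicate 1 below every WT sham library for stat2. irf2a (0.96), IRF5 (2.05), irf1b (2.12) and IRF8 (3.38) were also called higher in WT 7dpa against WT sham. These calls were kept when any 1 library was left out, but no such fit left out both WT 7dpa replicates 2 and 3.

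**Figure D5:**
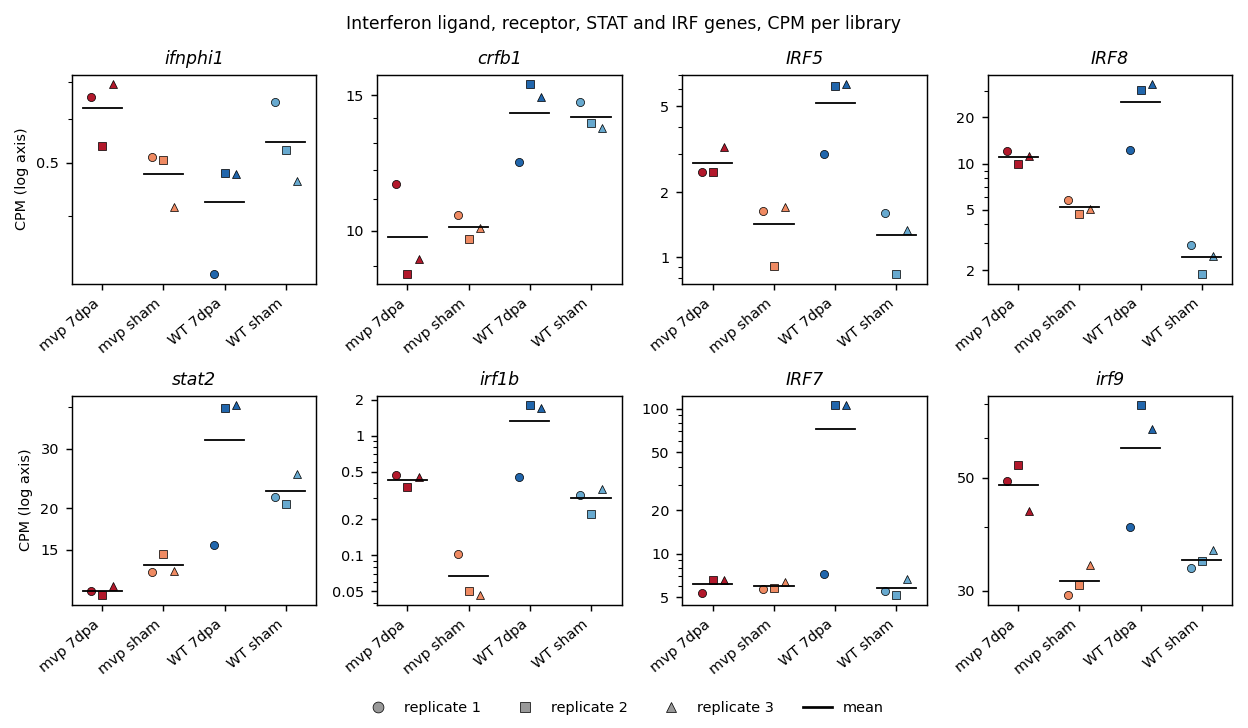
CPM per library of ifnphi1, crfb1, IRF5, IRF8, stat2, irf1b, IRF7 and irf9, on log axes. For IRF7, WT 7dpa replicate 1 lies near the other groups, at 7.26 CPM, while replicates 2 and 3 are both at 106 CPM; ifnphi1 stays under 1 CPM throughout.

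Over the whole list, the genes highest by fold change in WT 7dpa against WT sham were gig2h (log2 fold change 6.29), ifit8 (5.78), ifit14 (5.73), the DNA sensor CGAS (5.50) and a further Mx gene, mxf (5.37). In the WT sham libraries gig2h lay under the floor (0.0537, 0 and 0.0515 CPM) and CGAS at or under it (0.161, 0.132 and 0.0515 CPM). ifit8 and ifit14 reached at most 0.527 and 0.515 CPM there. The 4 called lower were the JAK kinase TYK2 (-2.33), gbp3 (-0.65), ifi44f1 (-0.49) and CYLD (-0.43), a deubiquitinase whose call was lost without WT sham replicate 2 or 3, WT 7dpa replicate 1 or 2, or mvp 7dpa replicate 1. ifit10, which like rsad2 did not pass the filter, had 7, 532 and 680 counts in WT 7dpa against 2, 2 and 3 in WT sham.

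Among the genes of the list called in the mutant response, the largest rises were those of irf1b (log2 fold change 2.61) and ifi44a1 (2.58), followed by the Toll-like receptor gene tlr22 (1.48), the immunoproteasome gene PSMB9 (1.32) and the GTPase gene gbp1 (1.25), and the adaptor gene mavs fell (-0.46). The level of irf1b was under the floor in every mvp sham library, at 0.103, 0.0505 and 0.0463 CPM. mxf had a log2 fold change of 2.64 but was not called (edgeR adjusted p = 0.106). PSMB9 kept its call whichever library was left out. The other 5 lost their calls without mvp sham replicate 2 or 3, and all of these but irf1b also without mvp sham replicate 1. The call of ifi44a1 was further lost without any mvp 7dpa or WT sham library, that of tlr22 without any mvp 7dpa library, WT 7dpa replicate 2 or WT sham replicate 3, that of mavs without mvp 7dpa replicate 1 or 3, and that of gbp1 without mvp 7dpa replicate 3.

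In mvp sham against WT sham SOCS3 ENSDARG00000025428, a feedback inhibitor of JAK-STAT signalling, was higher (log2 fold change 3.47), as were gig2h (3.38), mxd (1.91), ifitm1 (1.87) and PSMB8 (1.51). TYK2 (-2.61), irf1b (-2.09), the ISG15 protease gene usp18 (-1.32), ifi27.4 (-1.15) and parp12b (-0.82) were lower. As above, gig2h lay under the floor in every WT sham library and irf1b in every mvp sham library. The calls of irf1b and gig2h were lost without WT sham replicate 1 or 3 and without mvp sham replicate 1 or 3, that of gig2h also without WT sham replicate 2, and that of irf1b also without mvp sham replicate 2 and without any mvp 7dpa library. The other 8 kept theirs in all 12 fits that left out 1 library.

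Between injured hearts, ifit14 (-6.62), ifit8 (-5.46), helz2a (-3.93) and IRF7 (-3.55) were among the lowest in mvp 7dpa against WT 7dpa, and jak2a (1.1) and ifi44f1 (0.88) the only ones higher by edgeR. All 6 calls were kept when any library was left out, and that of IRF7 was lost in a fit of only the injured hearts (adjusted p = 0.0511). The 9 tested members had log2 fold changes of -6.23 to -1.1 against the same WT 7dpa libraries.

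As a description over 12 libraries, the log2 CPM of the members went together. Pearson's r over the 45 pairs of members had a median of 0.81 (0.20 to 0.98) and was above 0 in 45. Over the 9 libraries outside WT 7dpa the median was -0.04 (-0.80 to 0.72) and 20 of 45 were above 0. The libraries are the same for all pairs and fall into groups, so these values describe how much of the likeness lay in WT 7dpa and are given without a p-value.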

How the data were processed

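The values deposited by the authors are whole-number counts of reads per Ensembl gene, not normalized. The submitters' processing notes name HISAT2 2.1.0, featureCounts 1.6.0 and the build GRCz11; the handling of reads that fit several genes and the strand setting are not given in the sources used here, so reads of near-identical or overlapping genes could have been lost or misplaced. From these counts, genes were filtered with filterByExpr, library sizes scaled by TMM (factors 0.854 to 1.185), and all 12 libraries entered 1 quasi-likelihood fit of group means in edgeR 4.0.16 (R 4.3.3), with Benjamini-Hochberg adjustment over 16604 genes and a threshold of 0.05. CPM used TMM-scaled totals, and log2 CPM a prior count of 2. No 2 libraries of a group agreed within sampling noise (chi-square over its degrees of freedom of at least 2.12). This value was 84.1 and 86.9 for WT 7dpa replicate 1 against replicates 2 and 3, and at most 9.8 for every other pair.

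Gene names came from a table that gave a symbol for 29201 of 32520 genes; neighbours came from RefSeq's GRCz12tu annotation, and no coordinates are printed. The named genes were all 10 members, mvp, tested ligand, receptor, STAT and IRF genes, at most 5 called genes of the interferon list per direction and comparison by fold change, and the 10 genes most like the members over 12 and over 9 libraries; ifng1 and ifit10 were named after their values were seen. Some results of the interferon list are not reported here. Members and lists were chosen with earlier results of these data known. Alternatives were DESeq2 1.42.0 (size factors and Wald test), other filters and prior counts, fits of only the groups compared, a replicate block and leaving out each library. Groups and replicate numbers came from the labels. Tested on simulated counts for the mutant injury comparison, in which 200 of 16087 genes were changed, edgeR recovered 89.0% of 2-fold and 100% of 4-fold changes with 3.08% false calls. The simulation gave all genes and groups the same dispersion and had no library apart like WT 7dpa replicate 1. Genes of low mean CPM were left unchanged in it. These rates therefore do not carry over to the members.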

Additional observations from a re-analysis of the deposited data

Results flagged for a closer look

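The entries here are single genes whose injury response differed between the genotypes by edgeR's test of the difference itself (mutant minus wild-type, adjusted over all tested genes). The test uses the WT 7dpa libraries, whose values chose the 10 antiviral genes, so these genes are left out here. Groups of 3 libraries were not searched for outlying samples, although WT 7dpa replicate 1 stood apart from replicates 2 and 3 as described above.

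Of the interferon list, the difference on the log2 scale was negative for the effectors gig2h (-5.67), ifit8 (-5.62), mxd (-2.72), gbp1 (-1.85), ifitm1 (-1.63) and PSMB8 (-1.19), for the sensor CGAS (-4.58) and for the adaptor mavs (-0.64). In the WT sham libraries gig2h lay under the floor and CGAS at or under it. For mavs the log2 fold change was -0.46 in mvp 7dpa against mvp sham (edgeR adjusted p = 0.0277) and 0.18 in WT 7dpa against WT sham (edgeR adjusted p = 0.289). The WT 7dpa libraries were split for mavs, at 63, 100 and 95.6 CPM against 80.1, 75.9 and 72.9 in WT sham. Replicate 1 lay below all WT sham libraries and replicates 2 and 3 above them, so the wild-type direction depended on the library. Among signalling genes the difference was -3.60 for IRF7, -3.10 for SOCS3 ENSDARG00000025428, -2.27 for IRF8 and -0.83 for irf2a. It was positive for TYK2 (2.41), jak2a (0.86) and gbp3 (0.64). Between sham hearts, edgeR already called gig2h, mxd, ifitm1, PSMB8, SOCS3 ENSDARG00000025428, IRF8 and irf2a higher in the mutant, and TYK2 and gbp3 lower. The differences of these genes include that gap. SOCS3 ENSDARG00000025428 was at 67.3, 65.7 and 62.4 CPM in mvp sham and at 5.42, 6.68 and 5.51 in WT sham. TYK2 was at 3.13, 3.94 and 3.42 CPM in mvp sham and at 20.6, 19.5 and 24.1 in WT sham. The calls of PSMB8, ifit8, irf2a and mavs were lost in 10, 8, 7 and 6 of the 12 fits that left out 1 library, each of these 4 without WT sham replicate 3 and without mvp 7dpa replicate 1 among others. Those of the other 11 genes of the list named here were kept in all 12. No such fit left out both WT 7dpa replicates 2 and 3. IRF7 was at 7.26, 106 and 106 CPM in WT 7dpa and at 5.53, 5.18 and 6.69 in WT sham. Its level in WT 7dpa replicate 1 was thus close to that of sham hearts. The list was drawn up with earlier results of these data known, so these calls are no independent test.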

How the results depend on the processing

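Members called by edgeR numbered 0 in mvp 7dpa against mvp sham, 1 in mvp sham against WT sham, 7 in WT 7dpa against WT sham, 7 in mvp 7dpa against WT 7dpa and 3 in the difference of responses. The last 3 counts use the values that chose the genes. The counts for mvp 7dpa against mvp sham and for the sham hearts rest on a spread per gene shared with WT 7dpa, which also entered that choice. None of these counts is thus a test of the members. Leaving out each library gave 0 to 5, 0 to 5, 6 to 9, 6 to 10 and 3 to 9 in that order, always highest without WT 7dpa replicate 1. The low values of that library were among those that chose the genes, so the calls without it are no test of them. DESeq2's Wald test called 2 in the mutant response, 2 between sham hearts and 5 in the difference of responses. With no filter on low counts these were 1 in the mutant response and 5 in the difference. With at least 10 counts in every library, which left fewer members, they were 0 between sham hearts, 4 in the wild-type response and 4 between injured hearts. Fits of only the groups compared called 4 in the mutant response, 4 between sham hearts and 4 between injured hearts, and cannot be made for the difference of responses. For the interferon list such fits called 36, 42 and 20 in these comparisons, in place of 19, 25 and 44, and leaving out a library gave 12 to 40, 19 to 50, 52 to 71, 32 to 70 and 23 to 68 calls in the order above. The median range within WT 7dpa was 0.10 to 2.70. Replicate numbers did not pair the libraries (correlations of deviations from -0.05 to 0.06 in 18 pairs), and the replicate block gave 0, 1, 7, 7 and 4 members and 19, 26, 58, 41 and 30 genes of the list. Under the block the calls of tlr22 in the mutant response (adjusted p = 0.0668) and of irf1b between sham hearts (0.0511) were lost. Other causes of these changes were not tested. The shares of all tested genes called in these alternative fits are not given here, so their counts are not read as particular to the members or the list. Fold changes near 0 turned sign when a library was left out. In mvp 7dpa against mvp sham mxe ranged from -0.29 to 0.10 (above 0 without mvp sham replicate 3 or mvp 7dpa replicate 1) and dhx58 from -0.20 to 0.77 (below 0 without mvp sham replicate 1 or 3 or mvp 7dpa replicate 2). In mvp sham against WT sham ifih1 ranged from -0.01 (without WT sham replicate 1) to 0.10, and eif2ak2 from -0.17 to 0.38 (below 0 without WT sham replicate 2 or 3 or mvp sham replicate 1). Depth limits pkz, eif2ak2, dhx58, rsad2 and, outside WT 7dpa, mxb and the sham libraries of mxc, which had a few counts each.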

Other observations

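Genes outside the 10 whose log2 CPM followed them most closely over the 12 libraries, by Pearson's r with the mean z-score of the tested members, were DRAM1 (r = 0.988), a gene of autophagy, shisa10.2 (0.987), IRF7 (0.985), RNF213 (0.980), zgc:152658 (0.977), si:dkey-85k7.12 (0.976), si:ch73-24k9.2 (0.973), si:dkey-238c7.13 (0.973), ifit14 (0.973) and PARP12 (0.971). Of these 10, 4 were on the interferon list: IRF7, RNF213, ifit14 and PARP12. DRAM1 had a mean of 19.2 CPM in mvp 7dpa and 13.6 in mvp sham, was at 21.2, 92.3 and 86.4 in WT 7dpa, and had a mean of 19.3 in WT sham. shisa10.2 was at 1.26, 42.2 and 42.9 CPM in WT 7dpa, against a mean of 1.14 in WT sham, and si:dkey-238c7.13 was at 85.2, 476 and 508 against 72.4. Each of these genes had the 2 high libraries of WT 7dpa, and as these libraries set r, the values are a description.

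Over the 9 libraries outside WT 7dpa the most alike genes were others: GLI3 (r = 0.938), SNX17 (0.925), GCNT4 (0.920), ENPP2 (0.915), WNT5B (0.894), SETDB1 (0.893), GART (0.892), si:dkeyp-104f11.6 (0.890), ftr26 (0.888) and CDCA4 (0.880), with 0 of them on the interferon list. The members shared no common profile over these libraries, with a median pairwise r of -0.04. These genes were picked for the highest r among all tested genes with a symbol. The values are thus a description, and shared regulation was not tested. GLI3 had a mean of 10.6 CPM in mvp 7dpa and 9.26 in mvp sham, was at 9.25, 7.44 and 7.32 in WT 7dpa, with the highest value in replicate 1, and had a mean of 10.5 in WT sham.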
